A study of Mus musculus with 9 samples.

Results

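The serpin genes of the mouse were followed through whole tumors of Hepa1-6, a mouse hepatoma cell line grown in the liver. Members were all genes whose symbol is Serpin followed by a clade letter from a to i and a number, as named in the expression tables of the 9 tumors. Of 52163 named genes, 64 met this rule: 25 of clade A, 28 of clade B, 3 of clade E, 2 each of clades F and I, and 1 each of clades C, D, G and H. Neighboring genes that shared a table entry in any tumor were joined into 1 locus in all tumors, which left 48 serpin loci of 48254 loci in all, 7 of them with more than 1 serpin gene. The rule itself used gene names and no measured value, although it was chosen with earlier results of these data known.

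Pieces of subcutaneous Hepa1-6 tumor were implanted into the left liver lobe of male C57BL/6 mice bought at 6 to 8 weeks of age. The mice then received PBS or an anti-PD-1 antibody (clone RMP1-14), which blocks an inhibitory receptor of T cells, into the peritoneum every 4 days, 5 times in all. RNA came from 3 PBS tumors and, among the antibody-treated mice, from the 3 largest tumors (nonresponsive) and the 3 smallest (responsive), each from its own mouse, and intermediate tumors were left out. All 3 groups therefore carried the same graft in the same strain, the antibody-treated groups were defined by tumor size at harvest, and tissue around the tumor was removed before RNA was made. Values are FPKM, read fragments per kilobase of transcript, scaled to the mapped fragments of the library, so levels are per length and can be set beside each other between genes. In bulk tumor RNA, fewer cells of a type and less RNA per cell cannot be told apart.

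Serpins share a fold in which most members offer a reactive loop as bait to a serine protease, and cleavage of the loop traps the protease in a covalent complex. Members of clades A, C, D, F and G are largely made by hepatocytes, circulate in plasma and control coagulation, fibrinolysis, complement and neutrophil proteases, and a few have lost inhibition and carry hormones instead. Clade B members mostly stay inside cells, where some inhibit granule proteases of lymphocytes and neutrophils, and members of clades E, H and I act around connective tissue, vessels and neurons. These roles were used to order the results as 18 liver-secreted loci of 30 genes, 24 intracellular loci of 28 genes, and 6 stromal loci of 6 genes.

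Detection differed between these groups. An FPKM of at least 1 in some tumor was reached by 13 of the 18 liver-secreted loci, by 9 of the 24 intracellular loci and by 5 of the 6 stromal loci. Serpina3b and Serpina5 and 10 clade B loci (Serpinb5, Serpinb6e, Serpinb7, Serpinb9d, Serpinb9e, Serpinb9f, Serpinb9g, Serpinb9h, Serpinb11 and Serpinb12) were detected below 1 throughout, with a highest value of 0.523 for Serpinb5 in responsive tumor 3. Serpina1f, Serpina3a, Serpina16, Serpinb3a, Serpinb3b/Serpinb3c, Serpinb3d, Serpinb6d, Serpinb13 and Serpine3 were listed at 0 in all 9 tumors. The depth in reads is unknown, so a value of 0 sets no upper limit. An FPKM of 1 or more in at least 3 of the 6 tumors compared was needed for testing, and 24 serpin loci passed in each comparison: 12 liver-secreted, 8 intracellular and 4 stromal.

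Some tumors stood apart. Hepatocyte markers were lowest in PBS tumor 1, in which Serpinc1 was listed at 0, and nonresponsive tumor 2 alone held abundant transcripts of the exocrine pancreas. The 8 acinar markers summed to 1669.6 FPKM there and to between 7.10 and 49.4 in the other 8 tumors, where the defining markers Cela3b and Ctrb1 were listed at 0. The skeletal muscle marker Ckm was at 54.8 in nonresponsive tumor 3, at 12.5 in PBS tumor 1 and at or below 2.33 elsewhere. Pairwise correlations of tumors over all loci lay between 0.884 and 0.981. The replicates are separate mice, and with 3 against 3 an exact permutation test cannot give a p below 0.1. Tests therefore came from limma, a linear model with a variance estimate shared over all loci, on log2(FPKM + 1), and fold changes below are on that scale.

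The Serpina1 gene cluster had the highest mean FPKM of the serpin loci over the 9 tumors, although in PBS tumor 1 it was at 162, below Serpinh1, Serping1 and Serpinb6a/Serpinb6c. Its proximal promoters are shown because its genes are not all listed separately in 8 of the 9 tumors and are alike in sequence upstream as well. RefSeq promoters on GRCm38.p6 were matched for 54 of the 64 genes (among those missing were Serpina10, Serpina3h, Serpina3k, Serpina3m, Serpina6, Serpina9, Serpinb13, Serpinb1a and Serping1). The letters GTTAAT were searched on both strands in the 150 bases before each start. They occurred in 6 of 23 liver-secreted promoters (26.1%), in 1 of 26 intracellular and 1 of 5 stromal ones, against 4.34% of 27025 promoters of the genome. The 6 are Serpina7 and the 5 genes of the Serpina1 cluster, which share this stretch and do not count as independent. Below are 80 bases of each cluster promoter, 5′ to 3′ on the minus strand of chromosome 12, lined up on these letters, which are in capitals. They lie at chr12:103863623-103863702 for Serpina1a, chr12:103738198-103738277 for Serpina1b, chr12:103904960-103905039 for Serpina1c, chr12:103773632-103773711 for Serpina1d and chr12:103956958-103957037 for Serpina1e.
Serpina1a: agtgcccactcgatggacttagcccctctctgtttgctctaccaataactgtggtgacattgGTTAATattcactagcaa
Serpina1b: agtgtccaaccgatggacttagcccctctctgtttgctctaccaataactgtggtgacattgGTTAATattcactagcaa
Serpina1c: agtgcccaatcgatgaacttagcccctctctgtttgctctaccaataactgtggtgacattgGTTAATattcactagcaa
Serpina1d: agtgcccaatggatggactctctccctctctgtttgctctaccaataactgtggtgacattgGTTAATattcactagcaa
Serpina1e: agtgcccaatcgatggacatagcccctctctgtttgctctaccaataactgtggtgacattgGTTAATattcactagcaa

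The 10 pairs of these windows were identical at 73 to 78 of 80 bases (91.2% to 97.5%), and GTTAAT began 16 to 78 bases before the annotated start. The promoter of Serpina7, the carrier of thyroid hormone, is shown beside that of Serpinb2, a clade B inhibitor of plasminogen activators, because one held both GTTAAT and a TATA box (TATAAA, either strand) and the other the TATA box alone, with these motifs in capitals. Both are the 150 bases before an annotated start, at chrX:139085220-139085369 on the minus strand for Serpina7 and at chr1:107511273-107511422 on the plus strand for Serpinb2.
Serpina7: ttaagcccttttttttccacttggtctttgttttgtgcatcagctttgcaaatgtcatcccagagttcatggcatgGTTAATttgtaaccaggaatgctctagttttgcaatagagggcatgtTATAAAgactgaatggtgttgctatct
Serpinb2: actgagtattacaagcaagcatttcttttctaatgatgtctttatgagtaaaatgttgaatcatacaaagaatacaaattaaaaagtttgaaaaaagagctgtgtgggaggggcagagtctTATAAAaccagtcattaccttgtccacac

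TATAAA occurred in 4 of 23 liver-secreted, 7 of 26 intracellular and 0 of 5 stromal promoters, against 8.89% of all promoters. A forkhead motif (TGTTTAC), an HNF4 element (CAAAGTCCA) and a C/EBP element (TTGCNNCAA) had no match in a serpin promoter, against 2.01%, 0.322% and 1.07% of all promoters. A match is a stretch of letters and was not tested for binding, and none of these motifs overlapped each other in the promoters shown.

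Responsive against nonresponsive tumors is the comparison that separates the antibody-treated mice by outcome. Of the 24 serpin loci tested, 5 were higher in responsive tumors at an unadjusted p under 0.05, all liver-secreted (Serpina6, Serpinc1, Serpina11/Serpina9, Serpinf2 and Serpina7), and 1 was lower, the clade B locus Serpinb10/Serpinb2. Over the 12716 loci tested, 4.36% were higher and 1.56% lower at that p. No serpin passed an adjusted p of 0.05 in limma, the smallest being 0.835, and 0.0629% of all loci did. The median log2 fold change was 1.06 over the 12 liver-secreted loci, -0.02 over the 8 intracellular and -0.11 over the 4 stromal ones, beside -0.07 over all loci tested. The count of 6 was 10 without nonresponsive tumor 1, 2 without nonresponsive tumor 2, and 3 without responsive tumor 1 or without responsive tumor 3.

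Against PBS tumors, responsive tumors had 8 liver-secreted loci higher (the Serpina1 and Serpina3 loci, Serpina6, Serpina10, Serpina11/Serpina9, Serpinc1, Serpind1 and Serpinf2) at an unadjusted p under 0.05. Over the 12715 loci tested, 9.12% were higher and 10% lower. The smallest adjusted p of a serpin in limma was 0.246, and 0.149% of all loci passed 0.05. The median log2 fold change was 2.40 over the 12 liver-secreted loci, -0.60 over the intracellular and -0.03 over the stromal ones, beside -0.11 over all loci. Of the 8 higher loci, 4 stayed at an unadjusted p under 0.05 without responsive tumor 1, 5 without responsive tumor 2 and 4 without responsive tumor 3. Nonresponsive against PBS tumors gave 1 serpin locus higher (Serpina12) and 0 lower at that p, beside 1.57% and 1.66% of 12663 loci. The smallest adjusted p of a serpin was 0.700, beside 0.0395% of loci past 0.05, and the medians were 1.18, -0.35 and 0.02 for the 3 serpin groups beside -0.06 over all loci. That count of 1 was 0 without PBS tumor 1, 2 without PBS tumor 3 and 3 without nonresponsive tumor 3. The 3 comparisons share tumors and are not independent of each other.

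**Figure D1:**
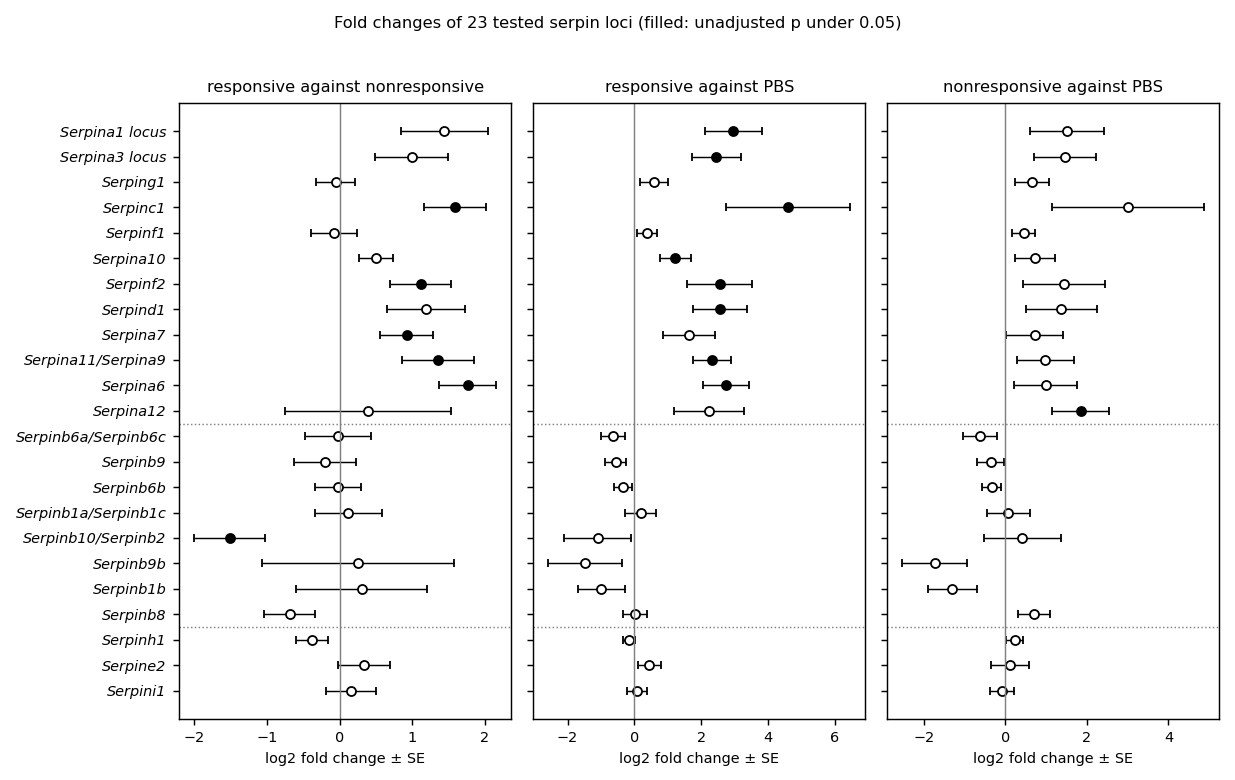
Log2 fold change ± SE (x axis, on log2(FPKM + 1)) of 23 of the 24 tested serpin loci (y axis) in each comparison, with dotted lines between liver-secreted, intracellular and stromal loci and filled points for an unadjusted p under 0.05. Filled points number 6, 8 and 1 in the 3 panels, and all 12 liver-secreted loci lie right of 0 in both comparisons with PBS.

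The 3 responsive tumors lay above all 3 nonresponsive tumors at 3 serpin loci (Serpina6, Serpina10 and Serpinc1) and below them at 1 (Serpinb10/Serpinb2), beside 5.69% and 4.78% of all loci tested. Against PBS they lay above at 9 loci, beside 11.8% of all loci tested above and 17.0% below. Nonresponsive tumors lay above PBS tumors at the Serpina3 locus and below them at Serpinb1b and Serpinb9b, beside 3.23% and 4.86%.

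Serpina1a to Serpina1e encode alpha-1-antitrypsin, the plasma inhibitor of neutrophil elastase, and formed the serpin locus with the highest mean FPKM over the 9 tumors. It was at 162, 1020.0 and 1267 FPKM in the PBS tumors, at 3623, 1361 and 1009 in the nonresponsive tumors and at 7229, 3172 and 4357 in the responsive tumors. The responsive tumors lay above all PBS tumors, whereas nonresponsive tumor 1 lay between responsive tumors 2 and 3. The log2 fold change against PBS was 2.96 (SE 0.85, unadjusted p of 0.0132, adjusted p = 0.246 in limma), and it lay between 2.03 and 3.51 when any 1 tumor was left out. With each gene symbol taken on its own, the most abundant gene of the cluster had a value of 2.83 at an unadjusted p of 0.0573. The tables list the 5 genes apart in PBS tumor 1, where Serpina1b was at 61.2, Serpina1e at 38.7, Serpina1a at 28.5, Serpina1c at 20.5 and Serpina1d at 11.7. Serpina1e was also listed apart at 2611 in responsive tumor 1 and at 1557 in responsive tumor 3, and Serpina1c at 1342 in responsive tumor 1. The remaining 6 tumors join all 5 with the pseudogene Gm8893, so reads of these near-identical genes cannot be assigned to one of them throughout. In responsive tumor 2 the confidence interval that comes with the joined entry ran from 0 to 78151 FPKM, and without that tumor the log2 fold change against PBS was 3.24 (unadjusted p of 0.0231).

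The Serpina3 locus holds 8 mouse counterparts of human antichymotrypsin, an acute phase inhibitor of cathepsin G. It was at 102, 507 and 546 FPKM in the PBS tumors, at 1513, 679.8 and 579 in the nonresponsive tumors and at 2688, 1200.4 and 1460.2 in the responsive tumors. Nonresponsive tumor 1 again lay within the responsive range, and all antibody-treated tumors lay above all PBS tumors. Responsive tumors were higher than PBS tumors by 2.46 on the log2 scale (SE 0.73, unadjusted p of 0.0152, adjusted p = 0.246), a difference at an unadjusted p under 0.05 in 13 of 13 alternatives. Entries were split differently from tumor to tumor, and Serpina3k, Serpina3m and Serpina3n stood apart from Serpina3f to Serpina3i only in PBS tumor 1 and responsive tumors 1 and 3, so the copies are given as 1 locus. Serpina3k, Serpina3m and Serpina3n were together at 67.2, 2688 and 1434 FPKM in these tumors. Serpina3f to Serpina3i were at 34.5 in PBS tumor 1 and listed at 0 in responsive tumor 1. In responsive tumor 3, Serpina3f was at 26.5 and Serpina3g to Serpina3i were listed at 0. Serpina3c, outside it, reached 1.16 in nonresponsive tumor 2 and was at 0 in 5 tumors.

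Serpinc1 encodes antithrombin, which inhibits thrombin and factor Xa. It was listed at 0, 88.7 and 129 FPKM in the PBS tumors, at 289, 194 and 108 in the nonresponsive tumors and at 752, 407 and 545 in the responsive tumors. Every responsive tumor was above every other tumor. Against nonresponsive tumors the log2 fold change was 1.59 (SE 0.43, unadjusted p of 0.0095, adjusted p = 0.835), and its p stayed under 0.05 in 12 of 13 alternatives, the exception being the fit of all 9 tumors together (0.358). Against PBS tumors it was 4.60 (SE 1.86, unadjusted p of 0.0486, adjusted p = 0.260), and without PBS tumor 1 it was 2.35 at an unadjusted p of 0.0009. The 0 of that tumor was not marked as a failed estimate, although it may still not be a true absence. The call against PBS tumors was lost in 8 of 13 alternatives. Leaving out responsive tumor 1, 2 or 3 gave 4.38, 4.82 and 4.61, each at p above 0.05, and a replicate block, a pseudocount of 0.1, no filter, a filter at FPKM 5 and each gene symbol on its own gave unadjusted p of 0.0511 to 0.0893.

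Serpind1, or heparin cofactor II, is a thrombin inhibitor that acts with dermatan sulfate. It was at 2.00, 16.7 and 20.8 FPKM in the PBS tumors, at 52.4, 24.5 and 13.8 in the nonresponsive tumors and at 86.6, 37.4 and 69.2 in the responsive tumors. Responsive tumors lay above PBS tumors but overlapped with nonresponsive tumor 1. The log2 fold change against PBS was 2.56 (SE 0.81, unadjusted p of 0.0196, adjusted p = 0.246), and was 2.31 without responsive tumor 1 and 2.47 without responsive tumor 3, both at p above 0.05. Serpina10, the protein Z-dependent inhibitor of factor Xa, was at 25.1, 43.3 and 91.9 in the PBS tumors, at 94.9, 59.2 and 83.1 in the nonresponsive tumors and at 108, 101 and 124 in the responsive tumors. Its 3 responsive tumors lay closest together and above all others. The difference from PBS was 1.23 (SE 0.46, unadjusted p of 0.0372, adjusted p = 0.254), with p above 0.05 without PBS tumor 1 (0.80), PBS tumor 2 (1.18), or responsive tumor 1 (1.24), 2 (1.30) or 3 (1.15).

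Serpinf2, the alpha-2-antiplasmin that stops fibrinolysis, was at 3.08, 28.2 and 57.0 FPKM in the PBS tumors, at 86.2, 47.0 and 31.9 in the nonresponsive tumors and at 153, 80.9 and 110.4 in the responsive tumors. Nonresponsive tumor 1 lay just above responsive tumor 2. The log2 fold change was 1.12 against nonresponsive tumors (SE 0.42, unadjusted p of 0.0364, adjusted p = 0.835) and 2.56 against PBS tumors (SE 0.97, unadjusted p of 0.0392, adjusted p = 0.254). The first was at p above 0.05 without nonresponsive tumor 2 (1.07) or 3 (0.79) or without responsive tumor 1 (0.89) or 3 (1.12), and the second without PBS tumor 2 (2.87) or without responsive tumor 1 (2.33), 2 (2.78) or 3 (2.56).

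Serping1, the C1 inhibitor of complement and kallikrein, and Serpinf1, an antiangiogenic factor that inhibits no protease, did not follow the other liver-secreted loci. Serping1 was at 193, 542 and 354 FPKM in the PBS tumors, at 596, 576 and 417 in the nonresponsive tumors and at 585, 413 and 526 in the responsive tumors. Serpinf1 was at 109, 170.0 and 117 in the PBS tumors, at 185, 227 and 133 in the nonresponsive tumors and at 182, 122 and 214 in the responsive tumors. At both loci the 3 groups overlapped, with unadjusted p between 0.165 and 0.840 over the 3 comparisons.

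Hormone carriers and other clade A members made up the rest of the tested liver-secreted loci. Serpina6, the corticosteroid-binding globulin, was at 0.375, 8.27 and 4.14 FPKM in the PBS tumors, at 12.3, 7.43 and 3.57 in the nonresponsive tumors and at 23.6, 26.8 and 28.1 in the responsive tumors. All 3 responsive tumors were above the highest of the other 6. The difference was 1.76 on the log2 scale against nonresponsive tumors (SE 0.39, unadjusted p of 0.0039, adjusted p = 0.835) and 2.75 against PBS tumors (SE 0.68, unadjusted p of 0.0069, adjusted p = 0.246), and both were under p of 0.05 in 13 of 13 alternatives. Serpina7, the thyroxine-binding globulin shown above, was at 1.36, 8.95 and 15.4 in the PBS tumors, at 12.7, 9.92 and 10.5 in the nonresponsive tumors and at 28.7, 12.2 and 28.9 in the responsive tumors. Responsive tumor 2 lay within the nonresponsive range, and the difference was 0.92 (SE 0.36, unadjusted p of 0.0413, adjusted p = 0.835). It was at p above 0.05 without nonresponsive tumor 1 (1.02), 2 (0.85) or 3 (0.89), and without responsive tumor 1 (0.73) or 3 (0.72).

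Serpina11 and Serpina9 share entries with Gm28577 in these tables and were read as 1 locus. It was at 1.27, 5.44 and 9.04 FPKM in the PBS tumors, at 20.9, 5.92 and 6.44 in the nonresponsive tumors and at 34.9, 19.4 and 24.8 in the responsive tumors. Nonresponsive tumor 1 overlapped with the responsive group. The log2 fold change was 2.34 against PBS (SE 0.57, unadjusted p of 0.0064, adjusted p = 0.246), under p of 0.05 in 13 of 13 alternatives, and 1.36 against nonresponsive tumors (SE 0.49, unadjusted p of 0.0324, adjusted p = 0.835), which was lost without nonresponsive tumor 2 (1.06) or 3 (1.11) and without responsive tumor 1 (1.14) or 3 (1.38). Serpina12, or vaspin, an inhibitor of a kallikrein, was at 0.146, 1.23 and 1.90 in the PBS tumors, at 6.27, 1.88 and 15.6 in the nonresponsive tumors and at 47.4, 2.29 and 3.86 in the responsive tumors. Its highest value stood in responsive tumor 1 alone. Nonresponsive against PBS tumors differed by 1.85 (SE 0.70, unadjusted p of 0.0370, adjusted p = 0.700), which was lost without PBS tumor 1 (1.47) or 2 (1.95) and without nonresponsive tumor 1 (1.83) or 3 (1.23).

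**Figure D2:**
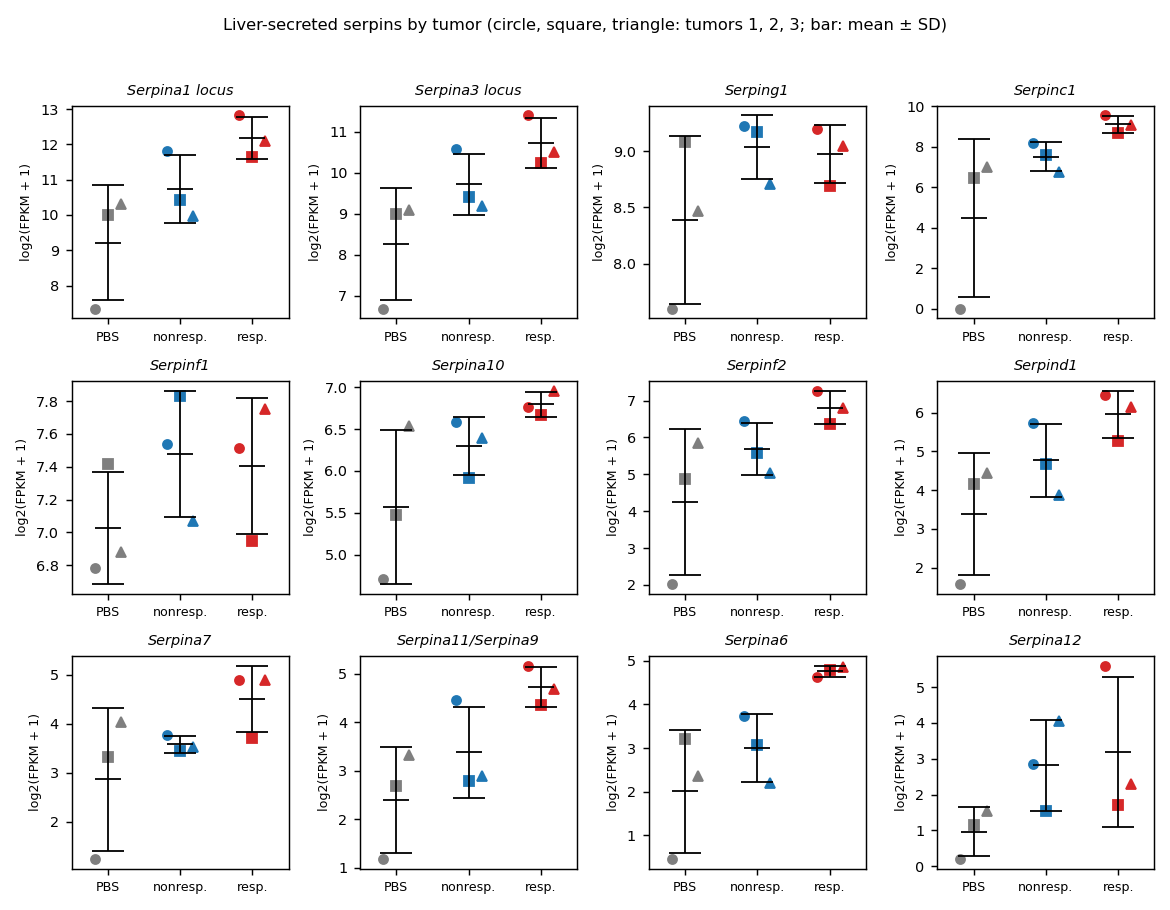
Level of each of the 12 tested liver-secreted loci as log2(FPKM + 1) (y axis, scaled per panel) in the 3 tumors of each group (x axis), with bars for the mean ± SD. PBS tumor 1 (grey circle) is the lowest tumor in all 12 panels, and the responsive tumors stand above all others at Serpinc1, Serpina10 and Serpina6.

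Together the liver-secreted serpins took 0.0876% to 0.352% of the FPKM of named genes in the PBS tumors, 0.346% to 0.907% in the nonresponsive tumors and 0.731% to 1.50% in the responsive tumors. The Serpina1 locus made up 27.0%, 41.8% and 48.5% of that sum in the PBS tumors and 55.8%, 42.6% and 41.8% in the nonresponsive tumors. Its share was 56.7% to 60.6% in the responsive tumors, and the Serpina3 locus made up 17.0% to 24.0% over the 9 tumors. Hepatocyte transcripts moved in the same order. The 10 hepatocyte markers summed to 401 to 3909 FPKM in the PBS tumors, 2373 to 9243 in the nonresponsive tumors and 8571 to 17569.5 in the responsive tumors, and 10 of 10 were above 0 in every tumor. The rank of the 9 tumors by this sum was the rank by the liver-secreted serpin sum, from responsive tumor 1 (11919.5 FPKM of serpins) to PBS tumor 1 (599 FPKM). The median log2 fold change of the markers was 1.45 between responsive and nonresponsive tumors and 2.80 between responsive and PBS tumors, and 6 and 10 of the 10 were higher at an unadjusted p under 0.05. Hepa1-6 is itself a line of liver origin, so these transcripts cannot be assigned to graft or host liver here.

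**Figure D3:**
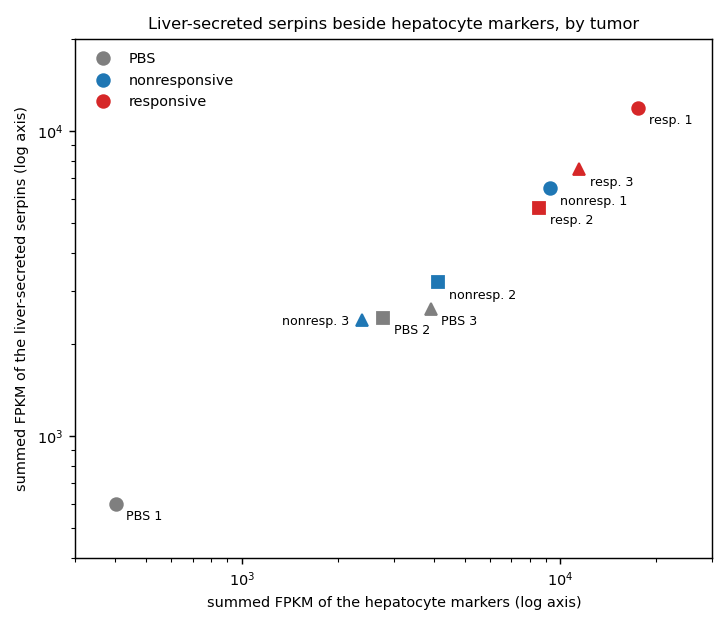
Summed FPKM of the liver-secreted serpins (y axis, log scale) against the summed FPKM of 10 hepatocyte markers (x axis, log scale), 1 point per tumor, colored by group. The points climb in 1 order from PBS tumor 1 (599 FPKM of serpins) to responsive tumor 1 (11919.5 FPKM), with nonresponsive tumor 1 among the responsive tumors.

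Set against the mean log2(FPKM + 1) of the hepatocyte markers in the same tumor, a description added after the data were seen, the liver-secreted loci were mostly below their level in the other groups. The median difference over the 12 loci was -0.39 between responsive and nonresponsive tumors, with 2 of 12 above 0, and -0.41 between responsive and PBS tumors, also with 2 above 0. The marker mean itself was higher in responsive tumors, by 1.45 over nonresponsive and by 2.81 over PBS tumors. A locus with unchanged FPKM is lower by that much on this scale. In FPKM, Serping1 and Serpinf1 had log2 fold changes of -0.06 and -0.07 between responsive and nonresponsive tumors. Non-overlap on this scale was not counted over all loci. The Serpina1 locus stood 3.62 above the markers in responsive and 3.63 above them in nonresponsive tumors. Serpina6 differed by 0.32 between these groups and Serpinc1 by 0.14, and both overlapped. Responsive tumors lay below nonresponsive tumors without overlap at Serpinf1 (-1.52), Serping1 (-1.50) and the Serpina3 locus (-0.45), and 0 loci lay above. The Serpina3 locus held within 2.15 to 2.18 above the markers in the responsive tumors and within 2.32 to 2.98 in the nonresponsive tumors. Against PBS, 5 loci lay lower without overlap, namely Serpinf1 (-2.43), Serping1 (-2.21), Serpina10 (-1.58), Serpina7 (-1.17) and the Serpina3 locus (-0.35). The Serpina1 locus (0.16) and Serpinc1 (1.80) lay higher without overlap, the latter with its 0 in PBS tumor 1 included. The hepatocyte content's part in the differences in FPKM was not tested beyond these values.

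**Figure D4:**
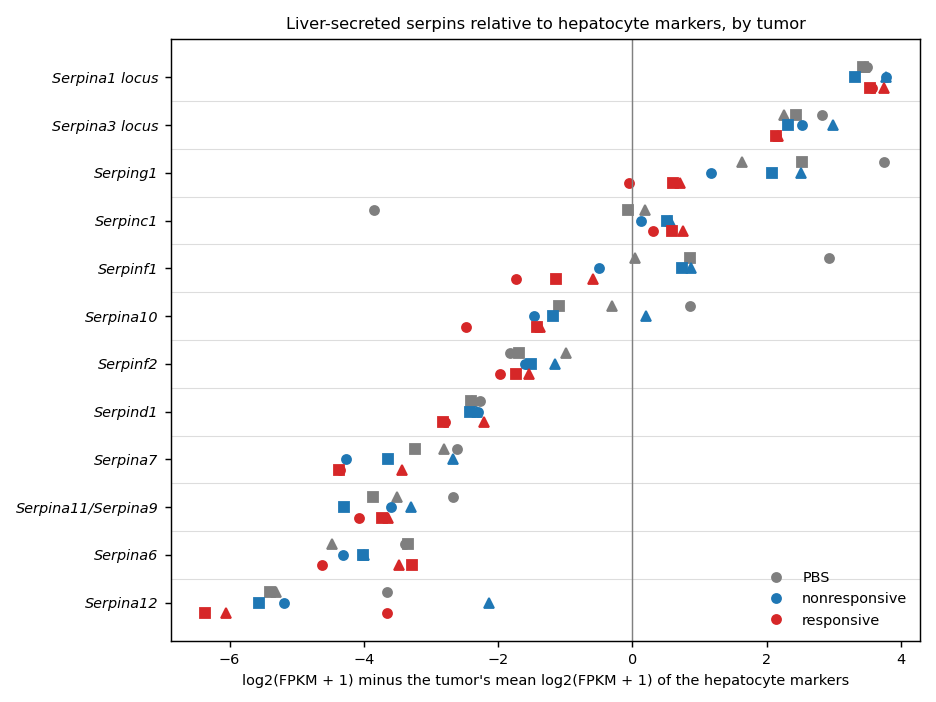
Distance of each liver-secreted locus (y axis) from the mean of 10 hepatocyte markers in the same tumor, in log2 units (x axis), 1 point per tumor, colored by group. The groups overlap at Serpina6 and at Serpinc1 between the antibody-treated tumors, and responsive tumors lie leftmost at Serping1 and Serpinf1.

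Most of the proteases that these serpins control in coagulation and fibrinolysis are liver products as well. Of 11 genes of such proteases in 10 loci, 5 loci stood above the nonresponsive level in responsive tumors at an unadjusted p under 0.05 (F2, F11, F12, Proc and the entry shared by Klkb1) and 0 lower, and 8 were higher against PBS. The plasminogen activator genes Plat and Plau were not, with log2 fold changes of -1.41 and -0.29 between responsive and PBS tumors. F2, the gene of prothrombin and the target of antithrombin, was at 7.13, 65.1 and 94.2 FPKM in the PBS tumors, at 211, 82.0 and 70.5 in the nonresponsive tumors and at 362, 185 and 268 in the responsive tumors. Plg, the gene of plasminogen, whose active form Serpinf2 inhibits, was at 5.28, 61.0 and 98.6, then 199, 99.3 and 59.3, then 378, 159 and 254 in the same order. At both, nonresponsive tumor 1 lay within the responsive range, as it did at most liver-secreted serpins. Over the list, log2 fold changes between responsive and nonresponsive tumors had a median of 1.06, the value also found for the liver-secreted serpins. Agt, the angiotensin precursor and a serpin by fold under another name, was at 2.79 to 26.8 in PBS, 21.2 to 55.9 in the nonresponsive and 51.5 to 94.7 in the responsive tumors, with an unadjusted p of 0.0317 for responsive against nonresponsive tumors (adjusted p = 0.835 in limma).

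Complement proteases, the targets of Serping1, gave 0 of 4 loci at an unadjusted p under 0.05 between responsive and nonresponsive tumors and 1 higher (Masp1) against PBS. Acute phase genes gave 0 of 5 and 1 of 5 (Crp), although their sum reached 21321 FPKM in nonresponsive tumor 1. Of the liver transcription factors, Hnf4a was higher in responsive than in nonresponsive tumors at an unadjusted p of 0.0167 and an adjusted p = 0.835 in limma (12.6, 11.2 and 12.4 FPKM in PBS, 23.7, 12.8 and 12.4 in nonresponsive, 38.3, 24.7 and 39.0 in responsive tumors), and Hnf4a and Cebpa were higher against PBS at an unadjusted p under 0.05. Foxa2 was not, at a mean of 43.9 in PBS, 20.9 in nonresponsive and 22.4 in responsive tumors, with overlap between all groups.

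Among the intracellular serpins, the locus of Serpinb10 and Serpinb2 was the only one at an unadjusted p under 0.05 in any comparison. Serpinb2 encodes plasminogen activator inhibitor 2, a product of activated macrophages, and the 2 neighboring genes share an entry in these tables. It was at 1.91, 36.1 and 19.04 FPKM in the PBS tumors, at 12.5, 24.8 and 13.8 in the nonresponsive tumors and at 3.35, 3.24 and 10.9 in the responsive tumors. The responsive tumors lay below all nonresponsive tumors, while the PBS tumors spanned both groups. The log2 fold change was -1.52 (SE 0.48, unadjusted p of 0.0193, adjusted p = 0.835), and p was above 0.05 without nonresponsive tumor 2 (-1.23) or without responsive tumor 1 (-1.28) or 2 (-1.26). Of 5 macrophage markers 0 differed at an unadjusted p under 0.05 between these groups, and their sum spanned 2211 to 5733 FPKM in the nonresponsive and 2150.5 to 7667 in the responsive tumors. The 5 neutrophil markers, also at 0 of 5, summed to 1175 to 5371 and 1051 to 3565. The entry of S100a8 in that sum also holds S100a6 and S100a7a. It was at 824 in nonresponsive tumor 3 and at 772 in responsive tumor 2, the tumors with the lowest sums of their groups. The part of either cell type in the Serpinb10/Serpinb2 difference was not tested.

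Serpinb6a/Serpinb6c, Serpinb9 and Serpinb6b had the highest mean FPKM of the clade B loci over the 9 tumors. Serpinb6a inhibits trypsin-like proteases and cathepsin G in the cytosol, and its locus was at 188, 103 and 149 FPKM in the PBS tumors, at 51.2, 117 and 131 in the nonresponsive tumors and at 75.5, 142 and 69.6 in the responsive tumors. Serpinb9, the inhibitor of granzyme B that shields cells from cytotoxic lymphocytes, was at 45.1, 50.6 and 45.9 in PBS, 21.9, 46.7 and 47.3 in the nonresponsive and 19.7, 46.8 and 34.4 in the responsive tumors. Serpinb6b, a homologue of Serpinb6a, was at 24.7, 31.8 and 28.8 in PBS, 16.6, 25.7 and 25.8 in the nonresponsive and 14.7, 28.4 and 25.3 in the responsive tumors. The groups overlapped at these loci, and nonresponsive tumor 1 and responsive tumor 1 were the lowest tumors at Serpinb9 and Serpinb6b.

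The same tumors were far below the others at Serpinb9b and Serpinb1b. Serpinb9b, a relative of Serpinb9, was at 0.659 in nonresponsive tumor 1 and at 0.324 in responsive tumor 1, and between 7.90 and 30.6 in the other 7 tumors. Serpinb1b, a copy of the neutrophil elastase inhibitor Serpinb1a, was at 0.469 and 0.440 in these 2 tumors and between 2.83 and 9.30 in the rest, the value of 7.22 in PBS tumor 2 carrying an interval from 0 to 25983. Afp, a fetal liver gene often active in hepatoma, was likewise at 0.321 and 0.646 in the 2 tumors and at 4.40 to 56.5 in the others. The entry of Krt14, which holds Krt16 too, was at 0.135 and 0.037 beside 4.90 to 20.9. Other fetal liver and tumor markers did not share this pattern. The entry of Igf2, which holds Gm49394 too, was highest in the 2 tumors, at 5.47 and 6.13 beside 0.771 to 5.20. H19, Gpc3 and Dlk1 lay there within the range of the other tumors. Over the 5 fetal liver and tumor markers, 1 of 4 tested (H19) was lower in responsive than in nonresponsive tumors at an unadjusted p under 0.05, and the sums spanned 36.5 to 46.0 FPKM in PBS, 29.1 to 107 in the nonresponsive and 10.7 to 68.4 in the responsive tumors. Whether these genes mark the share of hepatoma cells was not tested. The tumors lowest at these loci belonged to both outcomes, and neither locus gave an unadjusted p under 0.7 between responsive and nonresponsive tumors. The nonresponsive tumors lay below the PBS tumors at both loci, at unadjusted p of 0.0724 and 0.0727.

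Serpinb1a/Serpinb1c (9.65 to 37.2 FPKM over the 9 tumors) and Serpinb8 (0.649 to 4.45) overlapped between all groups, and Serpinb9c, too low for testing, reached 1.80 in PBS tumor 2. Of their target granule proteases, 0 of 5 tested loci differed at an unadjusted p under 0.05 in any comparison with responsive tumors. Gzmb, the gene of granzyme B, was at 14.1, 44.8 and 26.2 FPKM in PBS, 10.5, 21.1 and 35.5 in the nonresponsive and 6.65, 40.7 and 32.3 in the responsive tumors, and Prtn3 was listed at 0 in all 9. Gzmb was lowest in responsive tumor 1 and nonresponsive tumor 1, which were also lowest at Serpinb9. Markers of cytotoxic lymphocytes gave 0 of 5 in each comparison, with sums of 51.5 to 153 in PBS, 55.0 to 96.2 in the nonresponsive and 43.0 to 151 in the responsive tumors. The squamous serpins Serpinb3a and Serpinb13 were listed at 0. Of the 4 loci of squamous markers, Krt13 and Trp63 stayed at or below 0.375, while Krt14/Krt16 ranged from 0.0373 to 20.9 and Krt5/Krt8, an entry shared with a keratin of simple epithelia, from 51.2 to 255, and their sum was 51.3 to 271.

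**Figure D5:**
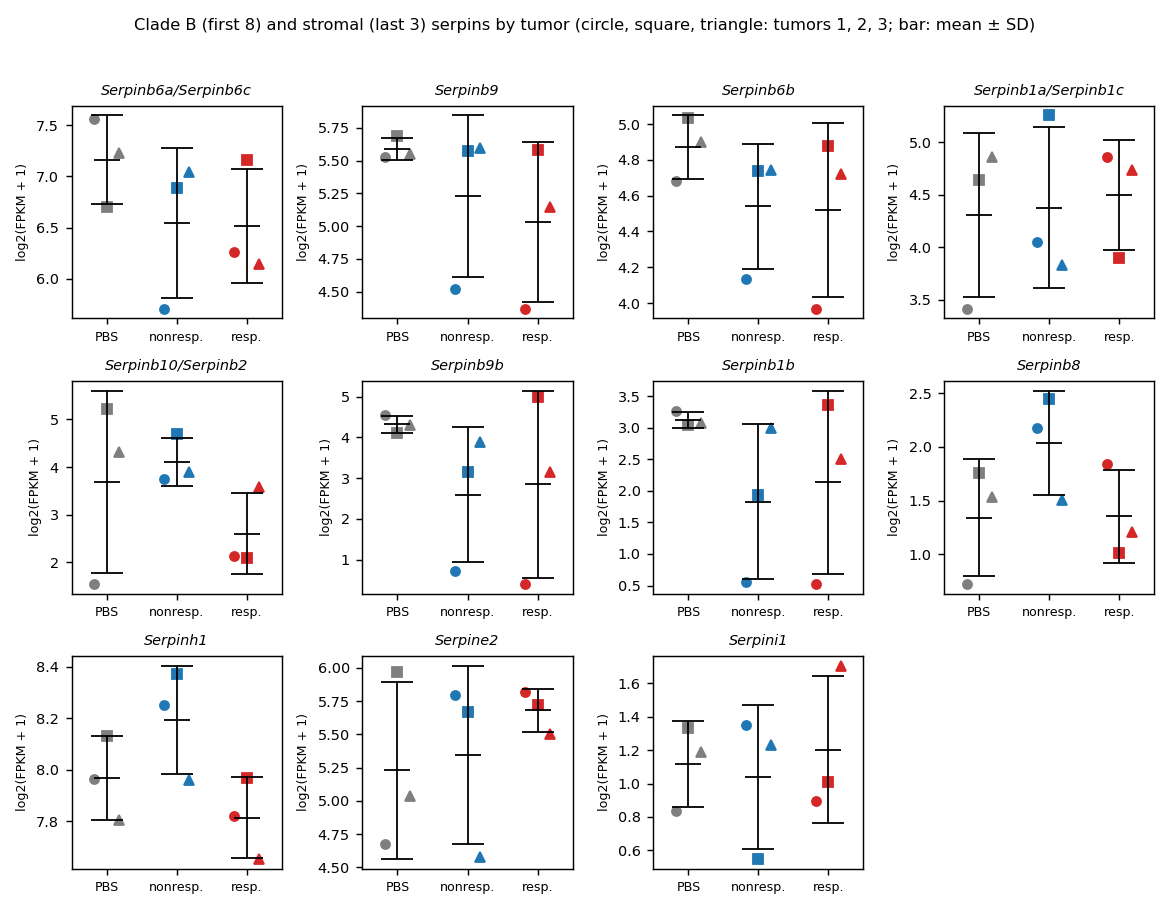
Level of the 8 tested clade B loci and 3 of the 4 tested stromal loci as log2(FPKM + 1) (y axis, scaled per panel) in the 3 tumors of each group (x axis), with bars for the mean ± SD. Responsive tumors lie below nonresponsive tumors at Serpinb10/Serpinb2, and the circles of nonresponsive tumor 1 and responsive tumor 1 lie lowest at Serpinb9, Serpinb9b and Serpinb1b.

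Serpinb2 and Serpine2 inhibit the plasminogen activators. Plat, the tissue plasminogen activator, was at 128, 94.6 and 66.7 FPKM in PBS, 16.7, 45.8 and 69.2 in the nonresponsive and 13.1, 83.3 and 36.5 in the responsive tumors, with overlap between responsive and PBS tumors. Plau, the urokinase activator, stayed within 17.1 to 28.5 in all 9 tumors. Plaur, the urokinase receptor, was lower in responsive than in PBS tumors at an unadjusted p of 0.0229 (124, 133 and 154 in PBS, 136, 68.6 and 125 in nonresponsive, 35.8, 83.3 and 83.9 in responsive tumors). Vtn, which encodes vitronectin, a plasma adhesion protein made in the liver, was higher in responsive than in PBS tumors at an unadjusted p of 0.0239 (17.5 to 204 against 361 to 668). Of the 4 receptors and cofactors, 0 differed at that p between responsive and nonresponsive tumors.

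Serpinh1, the collagen chaperone HSP47 of the endoplasmic reticulum, was the most abundant stromal serpin. It was at 249, 279 and 222 FPKM in the PBS tumors, at 303, 329.9 and 248 in the nonresponsive tumors and at 225, 249 and 200.2 in the responsive tumors. Responsive and nonresponsive tumors overlapped by 1 tumor on each side (unadjusted p of 0.132, adjusted p = 0.931). Of the 4 loci of its collagen clients, 1 was lower in responsive than in nonresponsive tumors at an unadjusted p under 0.05. This was Col5a1, at an unadjusted p of 0.0393 and an adjusted p = 0.835 in limma (36.9, 64.3 and 44.6 in PBS, 75.1, 82.0 and 50.9 in nonresponsive, 42.7, 50.7 and 32.7 in responsive tumors). Col1a1, Col1a2 and Col3a1 overlapped between these groups (unadjusted p of 0.0902, 0.112 and 0.0951). The median log2 fold change of the 4 was -0.66, beside -0.07 over all loci, and all 4 were below 0, as were 7402 of the 12716 loci tested. The 7 fibroblast and stellate markers, 3 of which are collagen clients too, gave 0 of 7 at an unadjusted p under 0.05 and summed to 2776 to 4722 in the nonresponsive and 2457 to 2603 in the responsive tumors.

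Serpine2, or protease nexin 1, was at 24.6, 61.6 and 31.9 FPKM in PBS, 54.5, 49.8 and 22.8 in the nonresponsive and 55.3, 51.7 and 44.3 in the responsive tumors, with overlap between all groups. Serpini1, neuroserpin, was between 0.463 and 2.26. Serpini2, known from the exocrine pancreas as pancpin, was at 6.06 in nonresponsive tumor 2 and listed at 0 in the other 8 tumors. The same tumor held the defining acinar transcripts, with Ctrb1 at 415, Prss2 at 255, Cela3b at 79.2, Cpa1 at 52.6 and Pnlip at 43.4 FPKM. Prss2 was at or below 0.354 in the other tumors. Leaving out nonresponsive tumor 2 removed the 1 value of Serpini2 and left 2 of the 6 loci that differed between responsive and nonresponsive tumors at an unadjusted p under 0.05. Endothelial markers gave 0 of 4 in each comparison, with sums between 52.8 and 126 FPKM over the 9 tumors.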

How the data were processed

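Bulk RNA-seq of 9 tumors (3 PBS, 3 nonresponsive, 3 responsive) was available as 1 FPKM table per tumor. The deposited FPKM values were made by the authors. The submitters' processing notes name Bowtie2 2.2.4, TopHat2 2.1.1 and the build mm8, and an assembly step that joins neighboring genes is visible in the tables. File coordinates overlapped GRCm38.p6 for 7.22% of 20470 genes, so none are printed. A further table of the authors' own fold changes and p-values between groups was not used. Entries without a gene name took 19.2% to 81.5% of summed FPKM and were left out. Read depth is not given. Steps in low values put the relative depth of the tumors between 0.933 and 1.07, and precision rests on the 3 mice per group.

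FPKM of entries was summed per gene or joined locus and tumor, 7 loci with a failed estimate were dropped, and loci that reached FPKM 1 in 3 or more of the 6 tumors of a comparison were fitted in limma 3.58.1 (R 4.3.3; trend, no covariate) on log2(FPKM + 1), p-values being adjusted by Benjamini-Hochberg over the whole set of loci fitted. The fit was tested on simulated data for responsive against nonresponsive, responsive against PBS and nonresponsive against PBS tumors (12716, 12715 and 12663 loci). Of the planted changes, 92.2%, 93.3% and 90.5% reached an unadjusted p under 0.05, beside 5.27%, 5.31% and 5.14% of unchanged loci. At an adjusted p under 0.05, 53.9%, 60.6% and 54.5% of planted changes were recovered. Every planted change was larger than 1.76 on the log2 scale, the largest serpin fold change between responsive and nonresponsive tumors. Recovery of smaller changes was not simulated. Simulated noise was independent between loci, so shifts shared by many loci were not covered. Members and lists were chosen with earlier results of these data known. Given in full were loci at an unadjusted p under 0.05 in any comparison, the 5 liver-secreted and 3 of each other group with the highest mean FPKM, and loci whose responsive and nonresponsive tumors do not overlap. Alternatives were a pseudocount of 0.1, no filter, a filter at FPKM 5, upper-quartile scaling, all 9 tumors in 1 fit, a replicate block, each gene symbol on its own, and each tumor left out. Tables and figures used Python 3.11.15, pandas 2.3.3, numpy 2.4.6 and matplotlib 3.10.9. Promoters came from RefSeq on GRCm38.p6. Reactive loop sequences were not used here. Some genes that entered the counts are not reported here.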

Additional observations from a re-analysis of the deposited data

How the results depend on the processing

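Of 207 recomputed fold changes of the 16 serpin results at an unadjusted p under 0.05, 159 kept direction and side of that threshold, 48 kept direction only and 0 turned. The counts of serpin loci at that p depended on single tumors. With 1 tumor left out at a time they ran from 2 to 10 (responsive against nonresponsive), 5 to 11 (responsive against PBS) and 0 to 3 (nonresponsive against PBS), and counts over all loci from 318 to 1447, 1097 to 4080 and 193 to 1981 beside 754, 2434 and 409. The median of the liver-secreted loci then ran from 0.81 to 1.46 between responsive and nonresponsive tumors. One fit of all 9 tumors gave 1 serpin locus (responsive against nonresponsive) and 0 (nonresponsive against PBS). For nonresponsive against PBS, a filter at FPKM 5 gave 243 loci with 0 serpins, and no filter 789 with 3. Relative to the hepatocyte markers, an alternative chosen after seeing the data, the liver-secreted medians were -0.39 and -0.41 in the comparisons of responsive tumors with nonresponsive and PBS tumors. At an adjusted p under 0.05, the alternatives gave 0 to 16 loci (main 8), 0 to 37 (main 19) and 0 to 18 (main 5).

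A replicate block, with tumor number as a term, gave 10 serpin loci of 970 loci (responsive against nonresponsive), 7 of 989 (responsive against PBS) and 1 of 215 (nonresponsive against PBS). Tumor numbers were not treated as pairs, and 2 of 9 same-number correlations were over 0.1 (range -0.499 to 0.640). The highest was between nonresponsive tumor 1 and responsive tumor 1. This check is limited and does not exclude pairing, because the deviations from group means that it compares sum to 0 within each group of 3. Precision is limited by 3 tumors per group, by an unknown read depth and by loci whose genes share reads.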
